A study of Mus musculus with 12 samples.

Results

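*Gas6* and the genes for its receptors *Axl*, *Mertk* and *Tyro3* were followed in the liver of mice that had been fed 4 diets. Members were the 4 rows with these gene symbols among the 54532 genes of the deposited expression table. They were chosen by results of the same data, because *Gas6* was known to be lower in the HYA group than in the control group, so that difference is described below without a test. Liver RNA came from 12 male C57BL/6J mice that received their diet from an age of 5 weeks for 26 weeks. The groups of 3 mice were given normal chow (ND), high-fat chow without a supplement (control), or high-fat chow to which 1% HYA or 1% LA had been added. HYA, 10-hydroxy-*cis*-12-octadecenoic acid, is made by gut lactic acid bacteria from linoleic acid (LA) and carries a hydroxyl group where its parent has a double bond. The control, HYA and LA groups thus shared the high-fat diet, and neither supplement was given with the normal diet. The labels name no batch and give no animal identifiers beyond a number in each title, so p-values measure the spread between these samples.

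Gas6 is a secreted protein with a Gla domain, in which glutamate residues are carboxylated by a vitamin K-dependent enzyme. The Gla domain binds phosphatidylserine on the surface of dying cells, and the other end of the protein binds the receptor tyrosine kinases Tyro3, Axl and Mertk, known together as TAM receptors. The bridge allows phagocytes to engulf dying cells, a process called efferocytosis, and signalling from the receptors dampens cytokine responses. In liver, Mertk is known from resident and recruited macrophages, and Axl from macrophages, stellate cells and endothelium.

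On the build GRCm38, *Gas6* (ENSMUSG00000031451) lies on the minus strand of chromosome 8 from 13465374 to 13494490 and has 1 annotated transcript of 15 exons. *Axl* (ENSMUSG00000002602) lies on the minus strand of chromosome 7 from 25757273 to 25788705 and has 20 exons. *Mertk* (ENSMUSG00000014361) lies on the plus strand of chromosome 2 from 128698956 to 128802894 and has 19 exons, and *Tyro3* (ENSMUSG00000027298) lies on the same strand of the same chromosome from 119797733 to 119818104 and has 20 exons. The end of *Gas6* shares 3100 bases with *Tmem255b* on the opposite strand, which was at 0 to 0.385 FPKM (fragments per kilobase of the gene, relative to the size of the library). Within *Mertk* lie the antisense gene *Gm14011*, listed at 0 in every mouse, and the small nucleolar RNA gene *Gm23172*, at 0 to 2.67 FPKM. The library kit named in the labels does not mark strand, so fragments of overlapping genes cannot be told apart.

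The 250 bases upstream of the start of the 3 members that were expressed above 1 FPKM are shown because *Gas6* and *Axl* differed between diet groups in parallel while *Mertk* differed less. They come from RefSeq on GRCm38.p6 and are written from 5′ to 3′ on the strand of the gene. Capitals mark the letters GGGCGG, the core of the box bound by Sp1, or the same letters read on the opposite strand (CCGCCC).
Gas6 (chr8:13494536-13494785, minus strand): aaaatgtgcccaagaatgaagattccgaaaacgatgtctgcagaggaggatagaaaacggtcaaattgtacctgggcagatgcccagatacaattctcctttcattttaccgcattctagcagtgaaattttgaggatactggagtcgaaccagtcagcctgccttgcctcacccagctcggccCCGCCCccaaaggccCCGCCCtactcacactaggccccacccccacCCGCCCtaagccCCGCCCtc
Axl (chr7:25788734-25788983, minus strand): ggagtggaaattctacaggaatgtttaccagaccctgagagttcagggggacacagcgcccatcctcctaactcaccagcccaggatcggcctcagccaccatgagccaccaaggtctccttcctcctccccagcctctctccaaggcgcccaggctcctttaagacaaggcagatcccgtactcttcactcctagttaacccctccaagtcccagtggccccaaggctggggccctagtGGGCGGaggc
Mertk (chr2:128698665-128698914, plus strand): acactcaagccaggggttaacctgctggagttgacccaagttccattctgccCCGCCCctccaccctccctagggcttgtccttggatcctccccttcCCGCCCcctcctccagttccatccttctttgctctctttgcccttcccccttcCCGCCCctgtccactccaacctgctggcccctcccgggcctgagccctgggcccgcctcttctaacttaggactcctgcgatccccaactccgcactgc
The *Gas6* window held 4 Sp1 boxes, the *Axl* window held 1 and the *Mertk* window held 3. The *Tyro3* window, which is not printed, also held 3. At least 1 such box was present in 32.7% of 32851 mouse promoter windows of the same length. The share of G and C was 54.8% in the *Gas6*, 60% in the *Axl* and 63.6% in the *Mertk* window, against a median of 52.4% over all windows. CG pairs numbered 10, 5 and 7, against a median of 6. None of the 4 members had a CCAAT box, a TATA box (TATAAA) or an AP-1 site (TGANTCA) in its window on either strand, and these were found in 33.8%, 12.4% and 6.75% of all windows. The letters CAGAC, which form a Smad box, occurred once in *Gas6* and once in *Axl* and are common, at 42.2% of windows. GGAATG, a site for TEAD factors, occurred once in *Axl* and in 12.6% of all windows. These matches describe letters and not binding.

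The depth was 17169064 to 25220880 fragments on genes per mouse, with a median of 19610557. The hepatocyte marker *Alb* (albumin) had group means of 20497 to 29222 FPKM, as is usual for liver tissue. The summed level of 8 hepatocyte markers, most of it *Alb*, was nevertheless lower in the high-fat groups. It was 39913 to 41219 FPKM in ND-fed, 26995 to 30735 in control, 34432 to 35555 in HYA-treated and 29751 to 30308 in LA-treated mice. Of the 8 genes, 6 were lower in control than in ND-fed mice (limma, adjusted p under 0.05), beside 19.1% of all genes tested. *Apoa1* and *Tat* did not pass (limma, adjusted p = 0.318 and 0.0901). The ratio of the scaling total of the authors to the fragments on genes also moved with the diet, from 0.917 to 0.953 in ND-fed and from 1.03 to 1.1 in control mice. Rescaling every mouse to the same sum (TPM) shifted the median difference over all 11083 genes tested from -0.04 to 0.17 on the log2 scale between control and ND-fed mice, and from 0.02 to -0.09 between HYA-treated and control mice. In bulk liver, fewer cells of a type and less RNA per cell cannot be told apart.

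*Gas6* was the most abundant of the 4 genes in every mouse, and its level was higher in each high-fat group than in ND-fed mice. In ND-fed mice it was at 19.7, 17.8 and 18.6 FPKM, with a mean of 18.7 ± 0.973 (SD, n = 3). In control mice it was at 75.0, 57.1 and 61.6 FPKM, with a mean of 64.6 ± 9.32 (SD, n = 3). These ranges lay far apart, and the mean of control mice was 3.46 times that of ND-fed mice. In HYA-treated mice *Gas6* was at 41.7, 45.0 and 39.1 FPKM, with a mean of 41.9 ± 2.96 (SD, n = 3). In LA-treated mice it was at 65.2, 58.1 and 54.3 FPKM, with a mean of 59.2 ± 5.55 (SD, n = 3). Every HYA-treated mouse thus lay above all ND-fed and below all control and LA-treated mice, whereas the ranges of control and LA-treated mice overlapped. Ranges were apart for 45.6% of all genes tested between control and ND-fed mice, and for 21.6% between HYA-treated and control mice. For HYA against ND and HYA against LA this was not counted. The control mean was 1.54 times and the LA mean 1.41 times the HYA mean, and the HYA mean remained 2.24 times the ND mean. Between 720 and 4112 fragments stood behind each of these values.

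**Figure D1:**
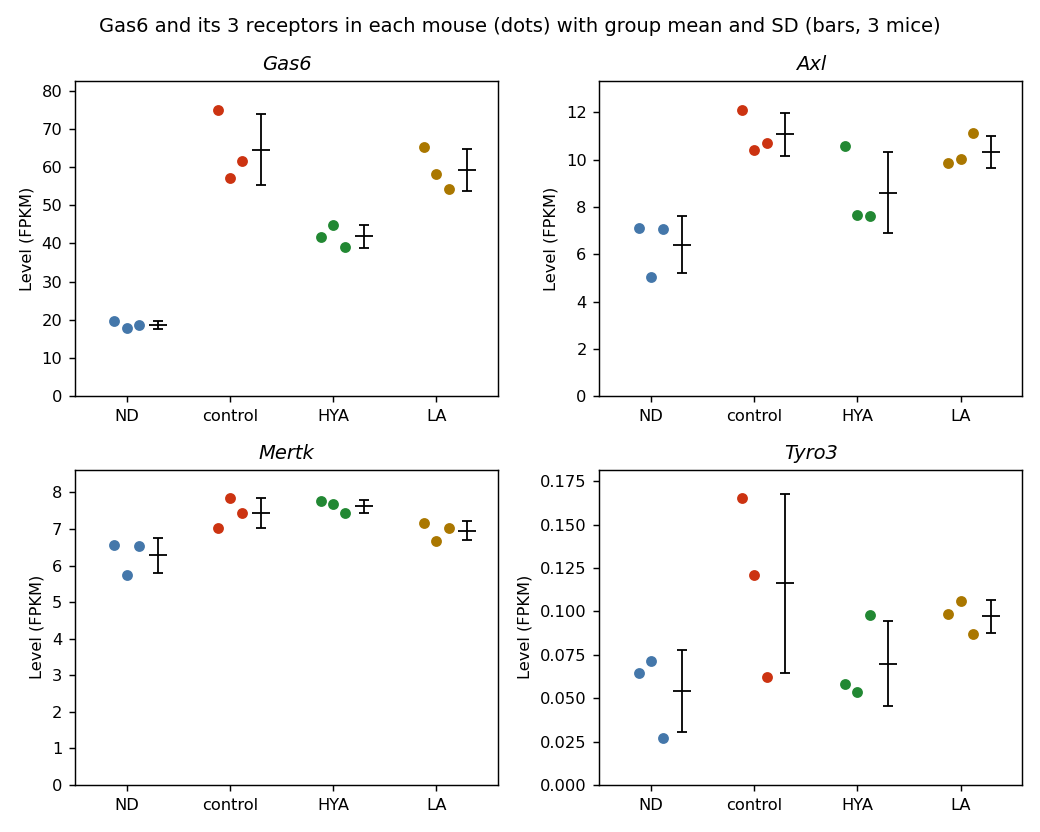
Level of *Gas6*, *Axl*, *Mertk* and *Tyro3* in FPKM on the vertical axis for each of the 12 mice (dots), grouped by diet on the horizontal axis, with the mean and SD of the 3 mice of a group beside them. For *Gas6* the 3 HYA-treated mice sit between 39.1 and 45.0 FPKM, apart from the ND-fed mice below and from the control and LA-treated mice above, and *Tyro3* stays below 0.165 FPKM in all but 1 control mouse.

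On the log2(FPKM + 1) scale, *Gas6* was 1.73 ± 0.10 (SE) higher in the control group than in the ND group and 0.61 ± 0.10 (SE) lower in the HYA group than in the control group. The rank of the groups was control, LA, HYA and ND, and the neighbours control and LA did not differ beyond their spread (difference of LA from control, -0.12 ± 0.10, SE). These differences share mice with the one by which the gene was chosen and carry no test. LA-treated and ND-fed mice share none with it, and there *Gas6* was higher by 1.61 (95% confidence interval, 1.38 to 1.83), or 3.17 times on the FPKM scale (limma, Benjamini-Hochberg adjusted p = 2.46e-06). All 3 LA-treated mice lay above all 3 ND-fed mice. How many genes were separated so was not counted here, and between control and ND-fed mice 45.6% of genes were. In this comparison 31.1% of the genes tested passed the threshold of an adjusted p of 0.05, 14.4% with a higher and 16.6% with a lower level in LA-treated mice.

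*Axl*, the receptor with the highest affinity for Gas6, followed the diet in the same order with smaller differences. Its level was 7.12, 5.03 and 7.09 FPKM in ND-fed mice (mean, 6.41 ± 1.20, SD, n = 3) and 12.1, 10.4 and 10.7 FPKM in control mice (mean, 11.1 ± 0.912, SD, n = 3). It was 10.6, 7.66 and 7.60 FPKM in HYA-treated mice (mean, 8.61 ± 1.69, SD, n = 3) and 9.85, 10.035 and 11.1 FPKM in LA-treated mice (mean, 10.3 ± 0.682, SD, n = 3). The ND-fed mice lay below all high-fat-fed mice. Between control and ND-fed mice 45.6% of all genes tested were separated so, and for HYA and LA against ND this was not counted. HYA-treated mouse 1 lay within the range of control mice, while the other 2 HYA-treated mice lay between the ND-fed mice and the rest. The control mean was 1.73 times the ND mean, a difference of 0.72 on the log2 scale (95% confidence interval, 0.41 to 1.02; limma, adjusted p = 0.00239). The LA mean was 1.61 times the ND mean (0.62 on the log2 scale; limma, adjusted p = 0.0059). These 2 calls held under the 19 alternatives run for *Axl*. Neither reached an absolute log2 difference of 1, an alternative that was applied only to counts over all genes. The background is high here, since 35.3% of genes passed between control and ND-fed mice, 16.2% being higher and 19.1% lower in control mice.

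Between HYA-treated and ND-fed mice, *Axl* was 1.34 times as high, and the difference did not pass the threshold (0.37 on the log2 scale; 95% confidence interval, 0.07 to 0.68; limma, adjusted p = 0.0884). Of the genes tested in this comparison, 16.6% passed, 8.72% with a higher and 7.85% with a lower level in the HYA group. The difference of HYA-treated from control mice was -0.34 ± 0.14 (SE) and is given as a description. Without HYA-treated mouse 1 it was -0.48, and the range over all mice left out in turn was -0.48 to -0.27.

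*Mertk*, the receptor that macrophages use in efferocytosis, varied little between groups. It was at 6.56, 5.74 and 6.54 FPKM in ND-fed mice (mean, 6.28 ± 0.473, SD, n = 3) and at 7.04, 7.84 and 7.44 FPKM in control mice (mean, 7.44 ± 0.401, SD, n = 3). It was at 7.77, 7.68 and 7.43 FPKM in HYA-treated mice (mean, 7.63 ± 0.178, SD, n = 3) and at 7.17, 6.66 and 7.01 FPKM in LA-treated mice (mean, 6.95 ± 0.261, SD, n = 3). The ND-fed mice again lay below all high-fat-fed mice, by a narrow margin, and the HYA-treated mice lay within or near the range of control mice. As given for *Axl*, 45.6% of all genes tested were separated between control and ND-fed mice, and the other 2 shares were not counted. The control mean was 1.18 times the ND mean, or 0.21 higher on the log2 scale (95% confidence interval, 0.08 to 0.35; limma, adjusted p = 0.0195). This call was lost when ND-fed mouse 2 was left out (limma, adjusted p = 0.0719), when control mouse 2 was left out (0.0664) and in a fit of only the 2 groups (0.0796). *Mertk* was also higher in the HYA group than in the ND group (0.25; limma, adjusted p = 0.019). Leaving out ND-fed mouse 2 or either of the HYA-treated mice 1 and 2 ended that call (limma, adjusted p = 0.0681, 0.0625 and 0.0601) as did the fit of only the 2 groups (0.0587). LA-treated and ND-fed mice differed by 0.13, which did not pass (limma, adjusted p = 0.135), although it passed on TPM, where the difference was 0.36 (limma, adjusted p = 0.00198) and the median of all genes was at 0.17. The difference of HYA-treated from control mice was 0.03, and it turned to -0.084 on TPM. Relative to the median of all genes it was 0.01 on both scales.

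*Tyro3*, the TAM receptor known mainly from the nervous system, was close to the limit of detection. ND-fed mice had 7, 7 and 3 fragments on it, control mice 22, 16 and 8, HYA-treated mice 7, 6 and 15, and LA-treated mice 13, 14 and 12. The corresponding levels were 0.0269 to 0.0711 FPKM in the ND group, 0.0623 to 0.165 in the control group, 0.0534 to 0.0979 in the HYA group and 0.0869 to 0.106 in the LA group. LA-treated mice thus lay above all ND-fed mice, and the other ranges overlapped. How many of all genes were separated so between LA-treated and ND-fed mice was not counted. With a mean of 0.0843 FPKM over all mice, *Tyro3* did not reach the minimum of 1 FPKM for the test. In a fit without that minimum it did not pass in any of the 5 comparisons tested, with an adjusted p of 0.139 between control and ND-fed mice and of 0.334 between LA-treated and ND-fed mice (limma). Without control mouse 3 the former was 0.0243 (limma), so that result rested on a single mouse and few fragments. Adding 1 to levels this low makes differences on the log2(FPKM + 1) scale small. Control less ND-fed mice was 0.08 there, 0.47 with a pseudocount of 0.1 and 1.05 with voom on recovered fragments. The control mean was 2.15 times the ND mean in FPKM.

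**Figure D2:**
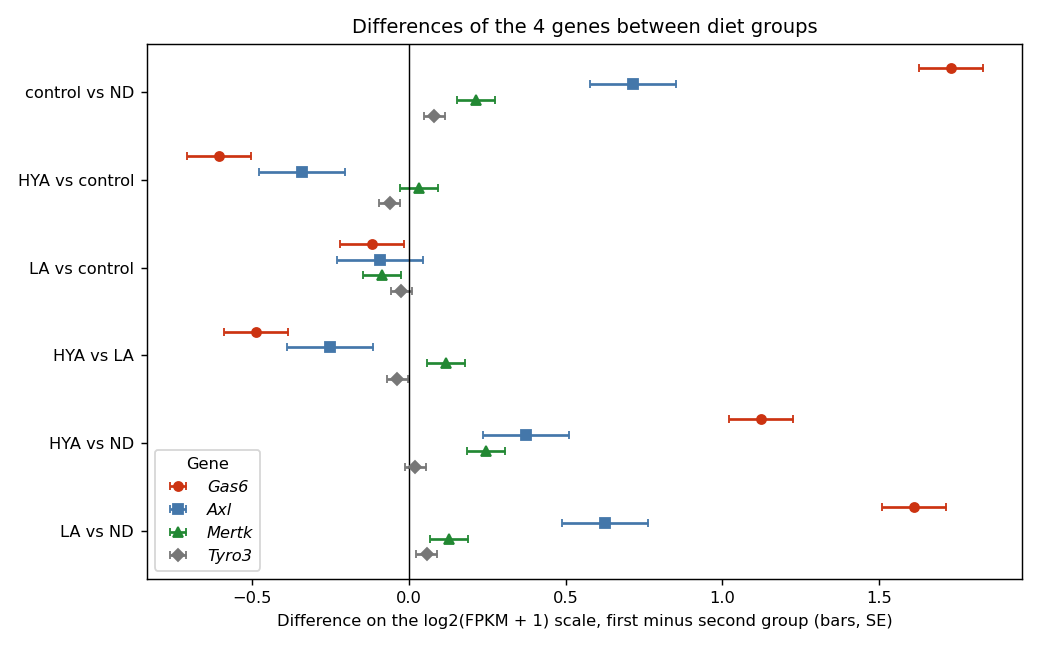
Difference between the groups named on the vertical axis, first minus second, on the log2(FPKM + 1) scale (horizontal axis), with SE bars, for the 4 genes from the fit of all 12 mice. *Gas6* and *Axl* lie to the right in the 3 comparisons with ND-fed mice, at 1.73 and 0.72 for control mice, *Mertk* lies between 0.13 and 0.25 there, and all 4 genes lie near 0 between LA-treated and control mice.

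The supplements were given at the same dose for the same time, and HYA and LA can be compared directly. *Axl* was 0.25 lower on the log2 scale in the HYA group than in the LA group (95% confidence interval, -0.55 to 0.05; limma, adjusted p = 0.382). *Mertk* was 0.12 higher (95% confidence interval, -0.02 to 0.25; limma, adjusted p = 0.351). Neither passed the threshold, and the intervals leave room for a difference in either direction for both receptors. The difference of *Gas6* was -0.49 ± 0.10 (SE), again as a description. Only 0.487% of all genes passed between HYA-treated and LA-treated mice. Between LA-treated and control mice 0% passed with limma, also with voom on recovered fragments, while 294 genes had an unadjusted p under 0.05, and *Axl* and *Mertk* each differed by -0.09 (limma, adjusted p = 0.999). The 95% confidence interval for *Axl* in that comparison reached from -0.39 to 0.21. These comparisons cover 2 receptors and 1 pair of compounds, and their p-values were adjusted over all genes.

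Because FPKM is a level per length of gene, the 3 receptors could be added. Their sum was 10.8 to 13.8 FPKM in the ND group, 18.2 to 19.3 in the control group, 15.1 to 18.4 in the HYA group and 16.8 to 18.2 in the LA group. *Axl* made up 46.4% to 51.9% of the sum in ND-fed mice and 56.6% to 62.7% in control mice. It made up 49.8% to 57.4% in HYA-treated and 57.5% to 61.0% in LA-treated mice. The receptors were thus present in near-equal amounts of *Axl* and *Mertk* mRNA on the normal diet, with *Axl* ahead in each control and LA-treated mouse. The mean share was 9.37 percentage points higher in the control group than in the ND group, 9.39 points higher in the LA group than in the ND group and it differed by -6.94 points between HYA-treated and LA-treated mice. Each of these differences had p = 0.1 in an exact two-sided permutation test, which is the smallest p that 3 against 3 mice allow, and p = 0.2 after adjustment over 12 tests. LA-treated and control mice differed by 0.02 points (exact permutation p = 1).

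**Figure D3:**
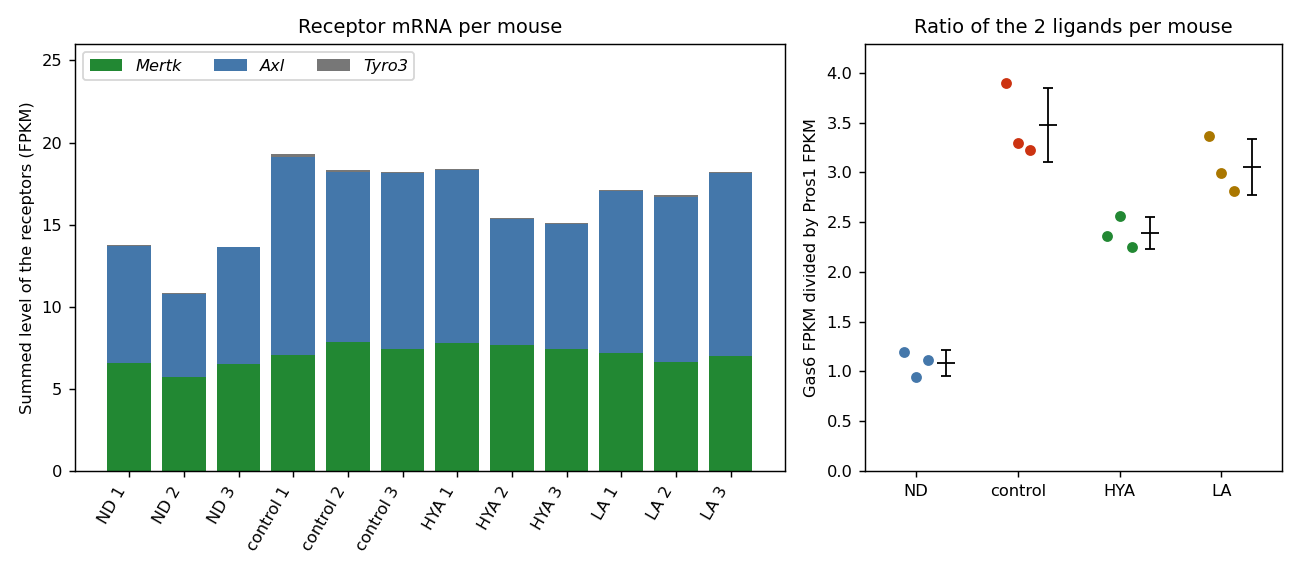
Left, FPKM of *Mertk*, *Axl* and *Tyro3* stacked for each of the 12 mice, where the total is lowest in ND-fed mice (10.8 to 13.8 FPKM) and *Tyro3* is barely visible. Right, *Gas6* FPKM divided by *Pros1* FPKM for each mouse (dots) with mean and SD of 3 mice, from 0.947 to 1.20 in ND-fed mice and from 3.23 to 3.90 in control mice.

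Of the other ligands, protein S (*Pros1*), which binds Mertk and Tyro3 but not Axl, differed little between groups. Its means were 17.3 ± 1.28 FPKM in the ND group, 18.6 ± 1.07 in the control group, 17.5 ± 0.132 in the HYA group and 19.4 ± 0.030 in the LA group (SD, n = 3), and it passed in none of the 6 comparisons (lowest adjusted p = 0.0676 with limma, for LA against ND). On TPM it passed between control and ND-fed mice (0.33; limma, adjusted p = 0.00373). The ratio of *Gas6* to *Pros1* was 0.947 to 1.20 in ND-fed and 3.23 to 3.90 in control mice, and 2.25 to 2.57 in HYA-treated and 2.81 to 3.36 in LA-treated mice. *Gas6* per summed receptor moved likewise, with means of 1.48, 3.46, 2.59 and 3.42 for ND, control, HYA and LA. These ratios contain the values by which *Gas6* was chosen. Galectin-3 (*Lgals3*), a macrophage lectin that has been described as a ligand of Mertk, was at 3.28, 1.86 and 3.32 FPKM in ND-fed and at 17.3, 8.82 and 12.0 FPKM in control mice. It rose by 1.82 ± 0.26 (SE) on the log2 scale (limma, adjusted p = 0.000357). In HYA-treated mice it was at 6.63, 4.45 and 8.47 FPKM, below every control mouse, and the difference of -0.86 did not pass (limma, adjusted p = 0.102). Ranges were apart for 21.6% of all genes tested in that comparison. *Tub* and *Tulp1*, further described ligands, had at most 3 fragments in a mouse.

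The other pathway genes came from 7 lists with 74 genes besides the members, of which 59 were tested. Between control and ND-fed mice 20 were higher and 13 lower, against 16.2% and 19.1% of all genes tested. On TPM, where the median of all genes was shifted as given above, these counts were 34 and 9. Over all 11083 genes tested, 1795 were higher and 2115 lower, and on TPM 3792 and 732. These are the background for each list and marker count of this comparison below. The median difference of the 59 genes was 0.06, beside -0.04 over all genes tested. Between LA-treated and ND-fed mice 18 were higher and 12 lower, and between HYA-treated and ND-fed mice 10 were higher and 8 lower.

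The vitamin K cycle supplies the cofactor for carboxylation of Gas6. *Ggcx*, the carboxylase itself, was at 27.2, 29.7 and 29.4 FPKM in ND-fed and at 16.9, 18.4 and 21.4 FPKM in control mice, a difference of -0.59 ± 0.10 (SE; limma, adjusted p = 0.00129). *Vkorc1*, the epoxide reductase that recycles the vitamin, also fell (-0.50; limma, adjusted p = 0.0244). Its paralog *Vkorc1l1* rose (0.31; adjusted p = 0.00621), as did the quinone reductase *Nqo1* (1.04; adjusted p = 5.23e-05), both with limma. *Aifm2*, another vitamin K reductase, did not pass (0.20; limma, adjusted p = 0.272). On TPM *Vkorc1* did not pass (-0.29; limma, adjusted p = 0.151) and *Aifm2* did (0.44; adjusted p = 0.0317). The carboxylase and *Gas6*, its substrate, thus differed in opposite directions between these groups. Hepatocyte markers differed in the same direction as *Ggcx*, with a median of -0.51 over the 8 of them, and their part was not tested. None of the 6 genes of the vitamin K cycle passed between HYA-treated and control mice, where *Ggcx* differed by 0.16 (limma, adjusted p = 0.446).

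The coagulation factors and related proteins that share the Gla domain with Gas6 were mostly lower where *Gas6* was higher. Of the 7 tested, 5 were lower in the control group than in the ND group and none was higher. They were protein C (*Proc*, -0.60; limma, adjusted p = 3.35e-05), protein Z (*Proz*, -0.59; adjusted p = 6.14e-05), factor VII (*F7*, -1.08; adjusted p = 8.33e-05), and the genes of factor X and prothrombin. The median over the list was -0.54. On TPM 5 were lower and 1, *Mgp*, was higher, with a median of -0.30. Hepatocyte marker levels, given above, moved in the same direction, and their part in the result was not tested. Between HYA-treated and control mice *Proc* (0.28; limma, adjusted p = 0.0357) and *Proz* (0.31; adjusted p = 0.0323) were higher. *F7* differed by 0.44 (limma, adjusted p = 0.0754). On TPM neither *Proc* (0.15; limma, adjusted p = 0.068) nor *Proz* (0.19; adjusted p = 0.0767) passed.

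Proteolytic release of the receptor ectodomains is carried out by ADAM proteases, which TIMP proteins inhibit. Of the 6 genes of this list, 5 were higher in the control group than in the ND group. The inhibitors *Timp1* (1.998; limma, adjusted p = 0.000358), *Timp2* (0.75; adjusted p = 0.00012) and *Timp3* (0.79; adjusted p = 0.00125) rose, and so did the protease *Adam10* (0.36; adjusted p = 0.00285). *Rhbdf2*, which brings ADAM17 to the cell surface, rose by 0.45 (limma, adjusted p = 0.0363), and *Adam17* itself differed by 0.10 (adjusted p = 0.357). On TPM all 6 genes were higher, and in the fit of only the 2 groups *Rhbdf2* did not pass (limma, adjusted p = 0.0767). *Timp1* was at 0 to 0.128 FPKM in the ND group, 2.06 to 4.45 in the control group, 0.248 to 1.51 in the HYA group and 1.69 to 3.33 in the LA group. None of the list passed between HYA-treated and control mice, where *Timp1* had the largest difference (-1.12; limma, adjusted p = 0.0607). On TPM *Timp2* was lower there (-0.45; limma, adjusted p = 0.0468).

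Of the genes of signal transduction downstream of the receptors, 12 were tested. They include kinases of the Akt and phosphoinositide pathways, *Socs3* and the type I interferon receptor. Between control and ND-fed mice 2 of them passed, beside 35.3% of all genes tested. The exchange factor *Vav1* of blood cells was higher (0.52; limma, adjusted p = 0.00621), and phospholipase C-gamma, *Plcg1*, was lower (-0.43; adjusted p = 0.0221). On TPM 4 of the 12 were higher and none was lower, beside 3792 higher and 732 lower of all 11083 genes tested. The third gene by p, focal adhesion kinase *Ptk2*, differed by -0.13 (limma, adjusted p = 0.202). None passed between HYA-treated and control mice, where the lowest p-values belonged to *Vav1* (-0.22), *Akt2* (0.10) and *Ifnar2* (0.19), with adjusted p = 0.35, 0.353 and 0.392 (limma). Of the 8 genes of the liver X receptor axis, whose transcription factors are known to induce *Mertk* in macrophages, *Abcg1* was higher (0.44; limma, adjusted p = 0.00705) and *Nr1h3* was lower (-0.17; adjusted p = 0.0433) in the control group than in the ND group. *Mylip* ranked next, at 0.34 (limma, adjusted p = 0.0576), and on TPM 4 of the 8 were higher, none was lower and *Nr1h3* turned to 0.063 (limma, adjusted p = 0.489). None of the 8 passed between HYA-treated and control mice, where *Rxra*, *Abcg8* and *Abcg1* differed by 0.20, 0.52 and -0.17.

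Of 18 tested genes of efferocytosis, 9 were higher and 4 lower in control compared with ND-fed mice, beside 1795 and 2115 of all 11083 genes tested. On TPM 13 were higher and 3 lower, beside 3792 and 732 of all genes. The part of the scaling in the split of the list was not tested. The scavenger receptor *Cd36* (1.69; limma, adjusted p = 6.32e-07) and the phosphatidylserine-binding annexin *Anxa5* (1.91; adjusted p = 1.17e-05) rose, and the lipid exporter *Abca1* fell (-0.70; adjusted p = 3.9e-05). The *Cd36* level was 23.5 to 29.4 FPKM in ND-fed and 83.3 to 91.1 FPKM in control mice. *Mfge8*, a secreted bridging protein that links phosphatidylserine to integrins and so resembles Gas6 in role, rose by 0.92 (limma, adjusted p = 0.000441). The phosphatidylserine receptor of resident macrophages, *Timd4*, fell by 0.89 on the log2 scale (limma, adjusted p = 0.0148). Between HYA-treated and control mice, *Lrp1* was higher (0.30; limma, adjusted p = 0.0355), *Anxa5* was lower (-0.73; adjusted p = 0.0401) and *Mfge8* differed by -0.47 without passing (adjusted p = 0.0883). On TPM *Lrp1* did not pass (limma, adjusted p = 0.0789), and *Anxa5*, *Cd36* and *Mfge8* were lower.

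**Figure D4:**
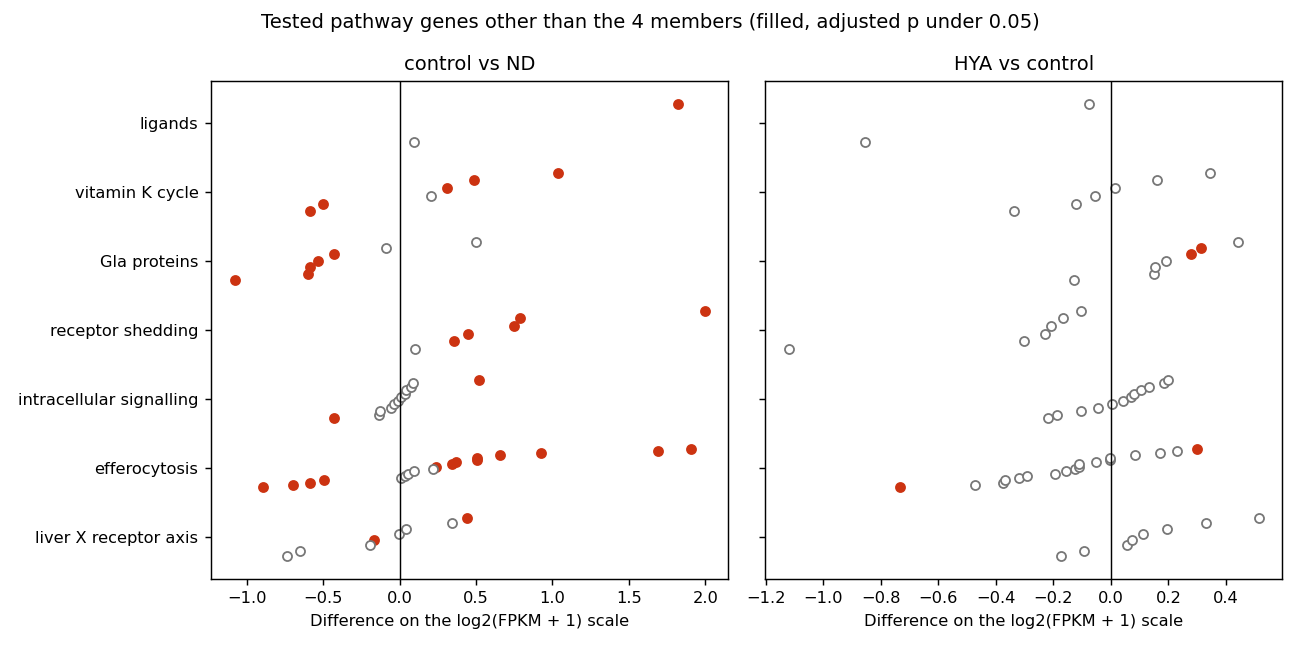
Difference on the log2(FPKM + 1) scale (horizontal axis) for each tested gene of the 7 pathway lists (vertical axis), for control minus ND-fed mice on the left and HYA-treated minus control mice on the right. Filled dots passed an adjusted p of 0.05, which 33 of 59 genes did on the left and 4 on the right.

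Between HYA-treated and control mice 4 pathway genes passed in all, 3 higher and 1 lower, beside 2.8% of all genes tested (1.57% higher and 1.23% lower). On TPM these were 0 higher and 4 lower, and the split of all genes also turned. The ranges of 3 and 3 mice were apart for 21.6% of all genes in this comparison, as they were for *Gas6*, and for 45.6% in the comparison of control with ND-fed mice, as they were for *Gas6*, *Axl* and *Mertk*. The number of pathway genes that passed between HYA-treated and control mice depended on single mice. It was 0 without control mouse 1 or 3, without any of the HYA-treated mice, or without LA-treated mouse 2 or 3. It was 2 when ND-fed mouse 2 was left out and 10 when control mouse 2 was left out, and it was 0 in a fit of only the 2 groups.

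Markers of the cell types that are known to carry TAM receptors or to make Gas6 moved with the diet in several lists, none of whose genes was at 0 in every mouse. The sum of 10 macrophage markers was 106 to 155 FPKM in the ND group, 172 to 222 in the control group, 134 to 183 in the HYA group and 183 to 199 in the LA group, and 5 of 7 tested genes were higher in the control group than in the ND group. The sum of 9 genes of lipid-associated macrophages was 29.4 to 39.7, 108 to 213, 61.9 to 72.7 and 112 to 172 FPKM in the same order of groups. Most of that sum was *Spp1* alone, with group means of 21.0, 118, 42.5 and 102 FPKM. All 8 tested genes of that list were higher in the control group than in the ND group, and 5 were lower in the HYA group than in the control group. For both lists the control mice lay above all ND-fed mice.

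The sum of 10 myofibroblast markers was 9.06 to 12.8 FPKM in the ND group, 43.2 to 63.0 in the control group, 24.99 to 31.1 in the HYA group and 44.4 to 59.4 in the LA group. As for *Gas6*, HYA-treated mice lay between the ND-fed mice and all others, and they also did so for the sum of lipid-associated macrophage genes. All 8 tested genes of this list were higher in the control group than in the ND group, and 4 were lower in the HYA group than in the control group. The sum of 11 stellate cell markers rose less, from 100.1 to 138 FPKM in ND-fed to 157 to 188 in control mice, with 5 of 11 genes higher, and 1 of the 11 was lower in the HYA group than in the control group. The sum of 10 markers of sinusoidal endothelium was 81.0 to 100.3 FPKM in ND-fed and 112 to 114 FPKM in control mice. Markers of resident Kupffer cells overlapped in sum, at 150 to 229 and 171 to 200 FPKM, with 1 of 8 higher and 4 of 8 lower in the control group than in the ND group. The counts between HYA-treated and control mice depended on single mice. No marker passed in the fit of only the 2 groups or without HYA-treated mouse 2, where no gene at all passed (limma). The 4 myofibroblast calls were also 0 without HYA-treated mouse 1 or 3 and without control mouse 1 or 3, and they were 2 without LA-treated mouse 3 or ND-fed mouse 2. The 5 calls of lipid-associated macrophages fell to 0 without control mouse 1 and to 2 without control mouse 3, and 3 were left when HYA-treated mouse 1 or 3 was omitted. The single stellate cell call held only when ND-fed mouse 3 or control mouse 2 was the mouse left out. The part of these cell types in the levels of *Gas6* and its receptors was not tested.

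**Figure D5:**
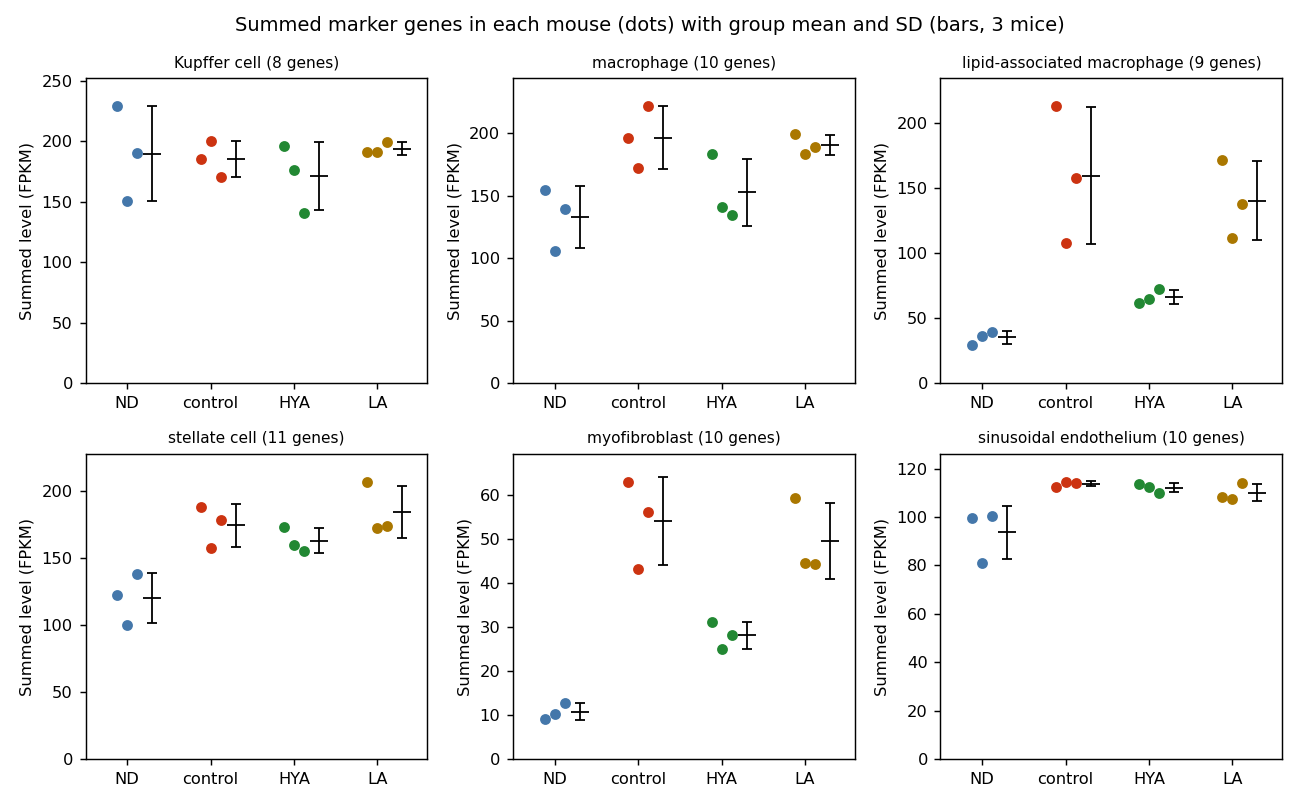
Summed FPKM of the marker genes of 6 cell types (panels) for each of the 12 mice (dots), by diet group, with mean and SD of 3 mice beside them. Myofibroblast markers are lowest in ND-fed mice (9.06 to 12.8 FPKM), highest in control and LA-treated mice and between them in HYA-treated mice. Lipid-associated macrophage markers have the same order, whereas Kupffer cell markers overlap between groups.

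The protein-coding genes with a pattern most like that of each member were taken by Pearson's r over the 9 high-fat-fed mice, which share the groups and the library scaling, so that r describes these mice only. For *Gas6* they were *Mapre3*, *Aldh1b1*, *Cpxm1*, *Adamts10* and *Plin2*, with r of 0.973, 0.972, 0.971, 0.970 and 0.970. This ranking contains the control and HYA values by which *Gas6* was chosen. *Mapre3* codes for a microtubule end-binding protein, *Aldh1b1* for an aldehyde dehydrogenase of mitochondria, and *Plin2* for the main coat protein of hepatic lipid droplets. Without the 2 mice farthest from the median of *Gas6*, HYA-treated mice 1 and 3, r was 0.928 to 0.987 for these genes. Within groups, after subtraction of the group mean over all 12 mice, r was 0.807 for *Mapre3* and 0.191 for *Plin2*, so the likeness to *Plin2* lay mostly between groups. *Axl* itself had r = 0.711 with *Gas6* over the 9 mice, and *Mertk* had r = -0.499. Within groups these values were 0.255 and -0.083, so both lay mostly between groups. Genes most like *Axl* were *Slfn5*, *Chsy1*, *Fgd2*, *Ppp1r9b* and *Nckap1l* (r = 0.944 to 0.950). Within groups their r was 0.970, 0.807, 0.855, 0.646 and 0.952 in the same order. Without the 2 mice farthest from the median of *Axl*, r over the remaining high-fat-fed mice fell to between 0.633 and 0.827. Genes most like *Mertk* were *Swi5*, *Tecr*, *Ift27*, *Kmt2b* and *Lims2* (r = 0.886 to 0.939). Their within-group r was -0.0016, 0.465, 0.599, 0.353 and 0.572 in the same order.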

How the data were processed

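The members and the gene lists were chosen with earlier results of these data known. The authors deposited 1 table of FPKM values per gene and mouse. Tools named in the processing notes of the submitters are fastp, HISAT2 2.0.5 and featureCounts 1.5.0-p3, with the build GRCm38. The methods call the unit TPM, but the columns summed to 342146 to 429286, so they were read as FPKM. Multiplied by the length of the gene, the values of a column were all multiples of 1 step, within 0.01 (100% of values), which was taken as 1 fragment. Such counting covers sampling error only.

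Values were analysed as log2(FPKM + 1) in 1 linear model of all 12 mice with limma 3.58.1 (R 4.3.3; empirical Bayes with trend, two-sided) over the 11083 genes whose mean reached 1 FPKM. P-values were adjusted over them by the Benjamini-Hochberg method, and genes with an adjusted p under 0.05 are called higher or lower. Of the members 3 were tested, and *Tyro3* was taken from a fit without the minimum. The difference of HYA-treated from control mice carries no test for the members, nor does *Gas6* in any comparison but LA against ND. For shares of receptors the exact permutation test, two-sided, was used. The method was tested on simulated data. Some list genes are not reported here. Named were the other genes of the lists of ligands, vitamin K cycle and receptor shedding, and the 3 lowest p-values of each other pathway list in control against ND and HYA against control. *Timd4*, *Socs3*, *Spp1* and the genes of factor X and prothrombin were named after their values were seen. Alternatives were a pseudocount of 0.1, TPM, median-ratio size factors, a replicate block, only the 2 groups compared, voom on recovered fragments, no minimum, an absolute log2 difference of at least 1, and leaving out each mouse. The log2 difference of at least 1 was applied only to counts over all genes. Protein sequences were not used here.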

Additional observations from a re-analysis of the deposited data

How the results depend on the processing

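*Axl* kept its direction in all 6 comparisons and its side of the threshold in the 5 that were tested under the 19 alternatives run. *Gas6* kept both between LA-treated and ND-fed mice. An absolute log2 difference of at least 1 was not among these 19, and the *Axl* differences that passed did not reach it. Groups of 3 mice and, for *Tyro3*, 3 to 22 fragments per mouse limit the precision. On TPM, *Gas6* differed by 1.99 (control vs ND), -0.74 (HYA vs control), -0.61 (HYA vs LA) and 1.26 (HYA vs ND), and *Mertk* by -0.084 (HYA vs control, a reversal) and 0.36 (LA vs ND, adjusted p = 0.00198 with limma). With only the 2 groups compared, *Mertk* differed by 0.21 (control vs ND) and 0.25 (HYA vs ND) and passed in neither. *Tyro3* differed between HYA-treated and control mice by -0.33 with a pseudocount of 0.1, -0.17 on TPM and -0.62 with voom. Between control and ND-fed mice these values were 0.47, 0.23 and 1.05. When each mouse was left out, *Mertk* ranged from 0.16 to 0.25 (control vs ND) and from 0.19 to 0.27 (HYA vs ND), and *Tyro3* from 0.050 to 0.12 (control vs ND) and from -0.059 to 0.0077 (LA vs control). The *Axl* share of LA-treated less control mice ranged from -1.36 to 1.68 points and turned sign without LA-treated mouse 2 or 3 or control mouse 2 or 3.

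The genes called between HYA-treated and control mice, 310, became 497 on TPM, 0 with only the 2 groups, 105 without a minimum, 34 with the fold threshold and 0 to 653 when a mouse was left out (0 without HYA-treated mouse 2, 653 without control mouse 2). For HYA against LA, 54 became 165 on TPM, 94 with only the 2 groups, 166 with voom, 0 without a minimum, 12 with the fold threshold and 0 to 259 when a mouse was left out. With the fold threshold 430 genes were called in control against ND, 209 in HYA against ND and 387 in LA against ND. HYA against ND ranged from 1193 to 1914 when a mouse was left out, and LA against control had 1 call without a minimum. TPM changed the split of higher and lower calls from 1795 and 2115 to 3792 and 732 (control vs ND), from 174 and 136 to 97 and 400 (HYA vs control), from 26 and 28 to 31 and 134 (HYA vs LA), from 966 and 870 to 1623 and 412 (HYA vs ND) and from 1600 and 1845 to 3615 and 618 (LA vs ND). The cause was not tested.

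The groups share replicate numbers, but of 18 pairs of mice with the same number only 3 had deviations from the group mean that correlated above 0.1 (range, -0.40 to 0.29), so the number was not taken as a pairing. With the replicate block 258 genes were called between HYA-treated and LA-treated mice in place of 54, and no call of a member changed. Of the other pathway genes, 7 in place of 4 were called between HYA-treated and control mice, with *Lgals3*, *Timp1* and *F7* added (limma, adjusted p = 0.0168, 0.0332 and 0.0332). Between control and ND-fed mice *Nr1h3* was lost (adjusted p = 0.0629) and *Abcg8* was added (0.0442).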
